A study of Homo sapiens with 6 samples.

Results

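The genes through which noradrenergic cells make, store, take back and break down catecholamines were compared between control and CyCoNP-depleted neuroblastoma cells. They are 9 of the 60676 genes in the deposited tables and were chosen by symbol: TH, DDC and DBH of the synthesis pathway, GCH1 of cofactor synthesis, SLC18A1, SLC18A2 and CYB561 of the storage vesicle, the uptake transporter SLC6A2, and MAOA of breakdown. The cells were SK-N-BE, an established human neuroblastoma line that takes on neuronal traits in retinoic acid. The cells of all 6 libraries had been in low-serum medium with 10 μM retinoic acid for 1.5 days. They had been transfected either with a scrambled siRNA (si-SCR, 3 libraries) or with 1 siRNA pool against the long noncoding RNA CyCoNP, a transcript of LINC02381 (si-CyCoNP, 3 libraries). One line, 1 time point and 1 pool were examined, so effects of the single siRNAs in the pool cannot be told apart.

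Catecholamines are made in a short chain. Tyrosine hydroxylase (TH) turns tyrosine into L-DOPA with tetrahydrobiopterin as cofactor, aromatic L-amino acid decarboxylase (DDC) turns L-DOPA into dopamine, and a vesicular monoamine transporter (SLC18A1 or SLC18A2) carries dopamine into the vesicle. Inside the vesicle dopamine beta-hydroxylase (DBH) makes noradrenaline, using ascorbate that cytochrome b561 (CYB561) keeps reduced. After release, the noradrenaline transporter (SLC6A2) returns the transmitter to the cell, where monoamine oxidase A (MAOA) on the mitochondrion breaks it down. Neuroblastoma arises from the sympathoadrenal lineage, in which this machinery is a defining trait.

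Total counts per library ranged from 3762009 to 4799407 and did not separate the groups (exact permutation test, two-sided, p = 0.9, n = 3 per group). LINC02381, the targeted gene, had 14.9, 12.9 and 15.4 FPKM (fragments scaled by gene length and library size) in the si-SCR libraries and 0.973, 1.65 and 0.676 FPKM in the si-CyCoNP libraries. Its log2 fold change was -3.78 ± 0.19 (SE, edgeR adjusted p = 6.95e-14), and no si-CyCoNP library came near a control. The labels do not say whether replicates were separate cultures, so the p-values measure only the spread between these libraries, which may be technical. A lower value in such bulk RNA can stand for fewer cells expressing a gene or for less RNA per cell, and these cannot be told apart.

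Of the 9 catecholamine genes, 6 were lower in si-CyCoNP cells, 1 was higher and 2 did not pass the test (edgeR quasi-likelihood test, Benjamini-Hochberg adjusted p under 0.05). GCH1, CYB561 and SLC18A1 fell the most, DDC, DBH and SLC6A2 fell by smaller amounts, and SLC18A2 alone of these genes rose. Over all 13966 genes tested, 14.2% were lower and 14.2% were higher by the same rule. Scaling by library totals alone moved the split over all genes from 1990 lower and 1981 higher to 1575 lower and 2454 higher, and limma on log2(FPKM + 1) gave 1118 lower and 1765 higher. Of the 9, 3 also fell by more than 1 on the log2 scale, against 2.98% of all genes, and 0 rose by that much, against 2.28%. The groups did not overlap in FPKM for 6 of the 9 genes, against 40.3% of all genes. The median log2 fold change was -0.36 over the 9 genes and 0.01 over all genes tested. All 9 passed the filter on low values (a mean of at least 1 FPKM in either group), MAOA only through its si-CyCoNP mean.

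**Figure D1:**
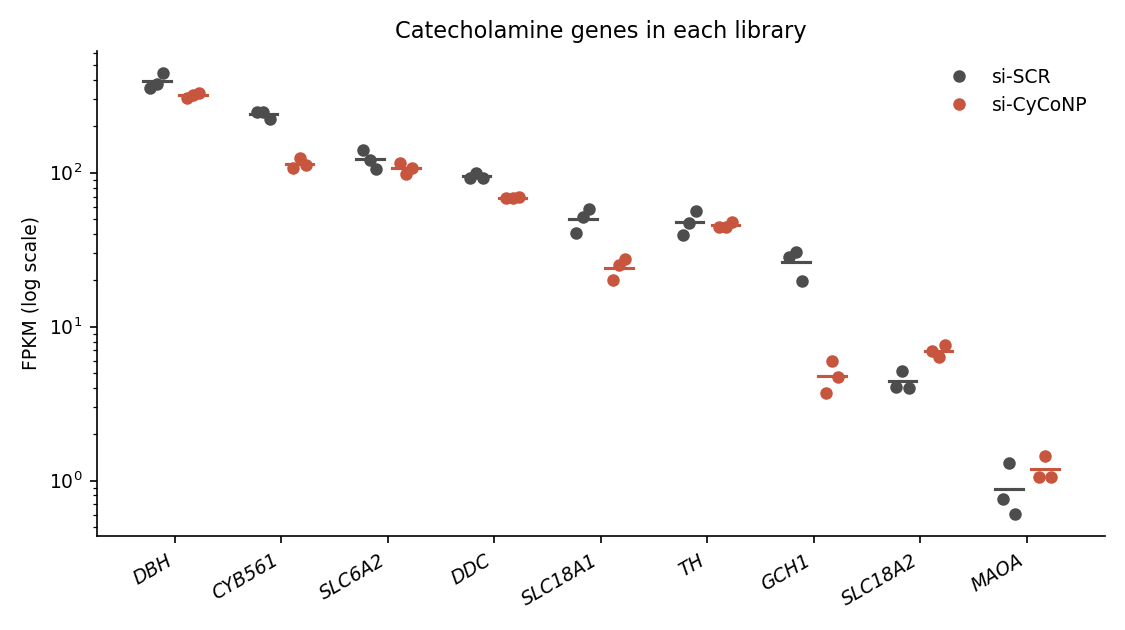
FPKM of the 9 catecholamine genes on a log scale, with 1 point per library (si-SCR grey, si-CyCoNP red) and a line at the mean of the 3 libraries of a group. The red points lie wholly below the grey ones for GCH1, CYB561, SLC18A1, DDC and DBH, and wholly above them for SLC18A2. For TH they lie within the range of the grey ones, and for SLC6A2 and MAOA they overlap it in part.

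**Figure D2:**
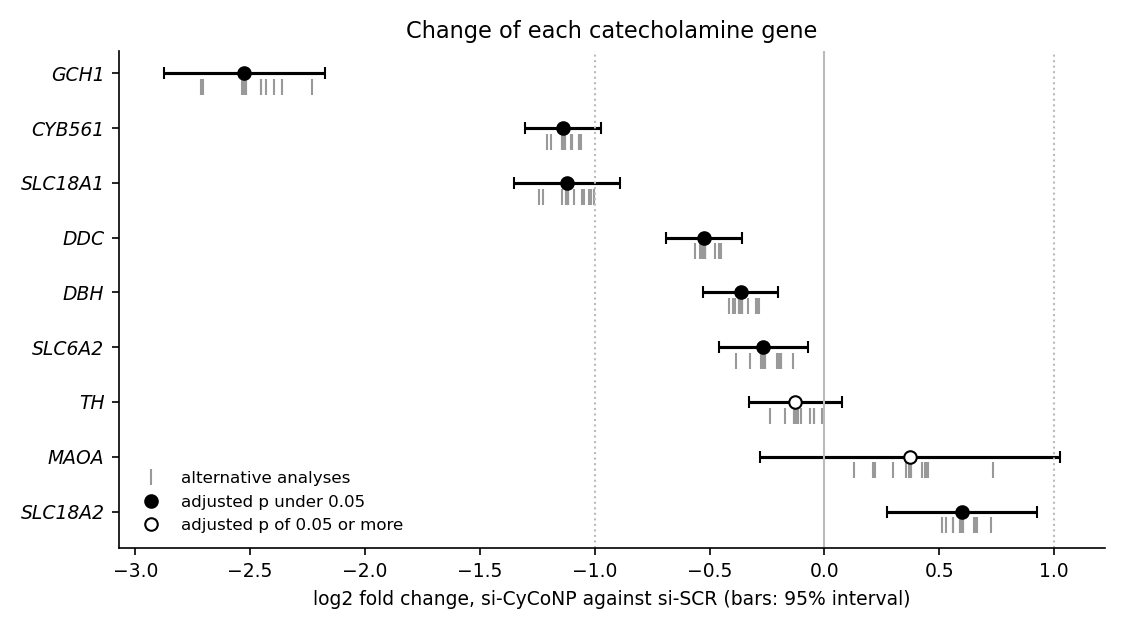
Log2 fold change of each gene in si-CyCoNP against si-SCR cells, with its 95% interval from the edgeR fit; filled points passed the test, grey ticks are the values of 15 alternative analyses, and dotted lines mark a log2 change of -1 and 1. GCH1 lies far from the others at -2.52, and the ticks stay on 1 side of 0 for every gene.

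TH, the rate-limiting enzyme of the pathway (ENSG00000180176, chromosome 11, 2163929 to 2171815, minus strand, GRCh38), was read at 39.1, 47.4 and 56.1 FPKM in the si-SCR libraries and at 44.6, 44.4 and 47.7 FPKM in the si-CyCoNP libraries. All si-CyCoNP values lay inside the si-SCR range. The log2 fold change was -0.13 ± 0.10 (SE, 95% interval -0.33 to 0.08), with an adjusted p of 0.377 by edgeR's quasi-likelihood test. A fall to 79.5% or a rise to 105% of the control level is within that interval.

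DDC, the decarboxylase that acts next (ENSG00000132437, chromosome 7, 50458436 to 50565405, minus strand), had 91.9, 99.8 and 91.9 FPKM in control cells and 68.4, 68.7 and 69.4 FPKM after depletion. The si-CyCoNP libraries lay close together and all below the lowest control. DDC fell by 0.52 on the log2 scale (SE 0.08, edgeR adjusted p = 1.14e-05), to 69.5% of control, and passed the test in all 15 alternative analyses.

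DBH, which makes noradrenaline and marks noradrenergic and adrenergic cells (ENSG00000123454, chromosome 9, 133636363 to 133659329, plus strand), was the most abundant of the 9 per length. It stood at 357, 375 and 446 FPKM in control and at 305, 322 and 331 FPKM in depleted cells. The groups did not overlap, and si-SCR 3 was the highest of all. DBH fell by 0.36 on the log2 scale (SE 0.08, edgeR adjusted p = 8.87e-04), to 77.7% of control. With limma on the FPKM scales the adjusted p-values were 0.0666 and 0.0674, so the call was lost there, while edgeR with scaling by library totals alone kept it (log2 fold change -0.30, adjusted p = 0.00544). The antisense neighbour DBH-AS1 had 3 to 7 counts per library, and the counting is stranded.

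The DBH promoter is shown because DBH makes noradrenaline itself. Its window held E-boxes, which are left in lower case, and 1 copy of TGACG in capitals, the core of a cAMP response element (CRE), whose first base is at -181 from the start site (RefSeq, GRCh38.p14, chr9:133636113-133636362, plus strand).
DBH upstream: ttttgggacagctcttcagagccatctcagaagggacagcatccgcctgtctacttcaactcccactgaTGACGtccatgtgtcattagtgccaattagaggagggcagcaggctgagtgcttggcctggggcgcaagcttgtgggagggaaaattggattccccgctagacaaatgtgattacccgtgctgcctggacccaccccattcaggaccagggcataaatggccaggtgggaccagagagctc

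GCH1, GTP cyclohydrolase, catalyses the entry step to tetrahydrobiopterin and thereby the supply of the TH cofactor (ENSG00000131979, chromosome 14, 54842008 to 54902826, minus strand). It had 28.2, 30.6 and 19.9 FPKM in the si-SCR libraries and 3.70, 5.95 and 4.70 FPKM in the si-CyCoNP libraries, from 278 to 354 and from 52 to 74 counts. Every si-CyCoNP value was far below every control. GCH1 fell by 2.52 on the log2 scale (SE 0.17, 95% interval -2.88 to -2.17, edgeR adjusted p = 1.51e-11), to 17.4% of control. It passed in all 15 alternatives, at values between -2.71 and -2.23, and only 1.25% of tested genes had a lower log2 fold change. It was also the only one of the 9 whose fall exceeded 1 on the log2 scale when that limit was itself tested with edgeR's glmTreat. The genes nested on the same strand, FDPSP3 and MIR4308, had at most 2 counts.

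SLC18A1 encodes VMAT1, the vesicular monoamine transporter typical of chromaffin and other endocrine cells (ENSG00000036565, chromosome 8, 20144855 to 20183206, minus strand). It was at 40.6, 51.8 and 57.9 FPKM in the si-SCR libraries and at 20.04, 25.1 and 27.3 FPKM in the si-CyCoNP libraries. The groups were widely separated. SLC18A1 fell by 1.12 on the log2 scale (SE 0.11, 95% interval -1.35 to -0.89, edgeR adjusted p = 1.69e-08), to 46.0% of control, and held in all 15 alternatives.

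CYB561, the electron carrier of the chromaffin granule membrane (ENSG00000008283, chromosome 17, 63432304 to 63446354, minus strand), was second in abundance among the 9 in control cells. Its values were 248.4, 249.2 and 223 FPKM in control and 108, 124 and 112 FPKM in depleted libraries. No si-CyCoNP value came near a control. The log2 fold change of CYB561 was -1.14 ± 0.08 (SE, 95% interval -1.30 to -0.97), and the gene passed in all 15 alternatives (edgeR adjusted p = 3.21e-11). The intervals of both CYB561 and SLC18A1 include -1, and glmTreat gave adjusted p-values of 0.608 and 1 for a change beyond that size. Of the other 4 tested genes on a list of cytochrome b561 relatives and ascorbate transporters, 0 passed, and their median with CYB561 was 0.27.

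SLC18A2 encodes VMAT2, the transporter of monoamine neurons (ENSG00000165646, chromosome 10, 117241093 to 117279430, plus strand), and moved the other way. It had 4.06, 5.16 and 4.004 FPKM in control cells and 6.92, 6.39 and 7.54 FPKM after depletion, from 72 to 80 and from 112 to 137 counts. All 3 si-CyCoNP libraries exceeded the highest control. SLC18A2 rose by 0.60 on the log2 scale (SE 0.16, 95% interval 0.27 to 0.92, edgeR adjusted p = 0.00517), to 151% of control, and passed in all 15 alternatives. PDZD8 overlaps it on the opposite strand with 415 to 553 counts, and SLC18A2-AS1 had at most 1.

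Its promoter is shown because SLC18A2 was the only one of the 9 to rise. Among the genes with a promoter entry, which TH, SLC6A2, GCH1 and SLC18A1 lacked, only SLC18A2 had a complete CRE. A link between the rise and this CRE was not tested. The capitals mark that palindrome, TGACGTCA, whose first base is at -48 from the start site (RefSeq, GRCh38.p14, chr10:117240864-117241113, plus strand).
SLC18A2 upstream: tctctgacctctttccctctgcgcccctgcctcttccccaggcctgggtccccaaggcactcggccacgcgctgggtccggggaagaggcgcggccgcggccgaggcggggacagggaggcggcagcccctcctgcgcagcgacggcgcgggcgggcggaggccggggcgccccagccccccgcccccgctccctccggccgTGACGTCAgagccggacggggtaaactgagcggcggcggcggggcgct

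RefSeq promoter entries matched 5 of the 9 genes (DBH, DDC, SLC18A2, MAOA and CYB561, with 9 windows in all). TH, SLC6A2, GCH1 and SLC18A1 were not matched. Each window was searched on both strands for the CRE TGACGTCA, its core TGACG, the AP-1 motif TGANTCA, the E-box CANNTG, the motif GATA, and by name for a PHOX2-type homeodomain pair and a retinoic acid response element of the DR5 type. The complete CRE was in 1 of the 9 windows and in 1.85% of all 35116 windows, and the core, which lies inside it, was in 2 windows (SLC18A2 and DBH) against 24.6%. GATA was in 2 windows against 49.7%, and the E-box in 6 against 68.7%. The AP-1, PHOX2-type and DR5 motifs were in 0 of the 9 windows, against 7.71%, 0.365% and 0.0057% of all windows. These counts describe letters in a window of 300 bases and carry no information on binding.

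The balance between the 2 vesicular transporters was followed within each library. SLC18A2 made up 9.11%, 9.05% and 6.47% of their summed FPKM in si-SCR libraries and 25.7%, 20.3% and 21.6% in si-CyCoNP libraries. The share was higher in every si-CyCoNP library (mean 8.21% ± 1.51 against 22.5% ± 2.80, SD, n = 3). The sum itself was lower, at 54.5 ± 8.88 FPKM against 31.1 ± 3.97 FPKM (SD, n = 3), with no overlap between groups. Both comparisons gave p = 0.1 in a two-sided exact permutation test, the smallest that 3 libraries against 3 can give.

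SLC6A2, the noradrenaline transporter of the plasma membrane (ENSG00000103546, chromosome 16, 55655988 to 55707645, plus strand), had 141, 122 and 105 FPKM in control and 115, 98.8 and 107 FPKM in depleted libraries. The groups overlapped. The log2 fold change was -0.27 ± 0.09 (SE, edgeR adjusted p = 0.0345), which passed the test, but 7 of the 15 alternatives did not, with adjusted p-values of 0.0582 to 0.293. Without the si-SCR library numbered 1, the log2 change was -0.14 (edgeR adjusted p = 0.282), and the call was also lost without si-SCR 2, si-CyCoNP 2 or si-CyCoNP 3. SLC6A2 overlaps the unnamed gene ENSG00000278928 on the same strand. That gene had 192 to 291 counts in si-SCR and 256 to 476 in si-CyCoNP libraries. The effect of the overlap on the SLC6A2 value was not tested.

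MAOA, which oxidises noradrenaline and serotonin (ENSG00000189221, chromosome X, 43654907 to 43746817, plus strand), was barely detected. It was at 0.758, 1.30 and 0.605 FPKM in control and at 1.06, 1.45 and 1.05 FPKM in depleted cells, from 16 to 34 counts per library. The groups overlapped. The log2 fold change was 0.37 ± 0.32 (SE, 95% interval -0.28 to 1.03, edgeR adjusted p = 0.419), an interval that includes no change.

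By FPKM the order in si-SCR cells was DBH (393 ± 46.9), CYB561 (240.3 ± 14.7), SLC6A2 (123 ± 17.8), DDC (94.5 ± 4.56), SLC18A1 (50.1 ± 8.78), TH (47.5 ± 8.48), GCH1 (26.2 ± 5.64), SLC18A2 (4.41 ± 0.648) and MAOA (0.887 ± 0.364, all SD, n = 3). The libraries of SLC18A1 and TH overlapped, and no other neighbours did. In si-CyCoNP cells DBH stayed first at 319 ± 13.0 FPKM, while CYB561 (115 ± 8.15) came within the range of SLC6A2 (107 ± 8.08). TH (45.6 ± 1.88) then stood above SLC18A1 (24.2 ± 3.74), and SLC18A2 (6.95 ± 0.577) above GCH1 (4.79 ± 1.13, SD, n = 3), with no overlap in either pair. Together the 9 genes took 0.376% ± 0.0030 of all counts in si-SCR and 0.257% ± 0.0049 in si-CyCoNP libraries (SD, n = 3, exact permutation test, two-sided, p = 0.1).

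Ratios between 5 pairs of the genes were taken within each library, since a ratio does not depend on the scaling of the library. GCH1 to TH stood at -0.47, -0.63 and -1.50 on the log2 scale in si-SCR and at -3.59, -2.90 and -3.34 in si-CyCoNP libraries, a difference of -2.41. DDC to TH differed by -0.41 and DBH to TH by -0.25, and SLC18A2 to SLC18A1 differed by 1.71. In these 4 ratios the groups did not overlap (each p = 0.1 in the two-sided exact permutation test, the smallest possible, and 0.125 after Benjamini-Hochberg adjustment over the 5), so the design cannot take them past 0.05. MAOA to SLC6A2 differed by 0.66 and the groups overlapped (exact permutation p = 0.3, adjusted 0.3).

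**Figure D3:**
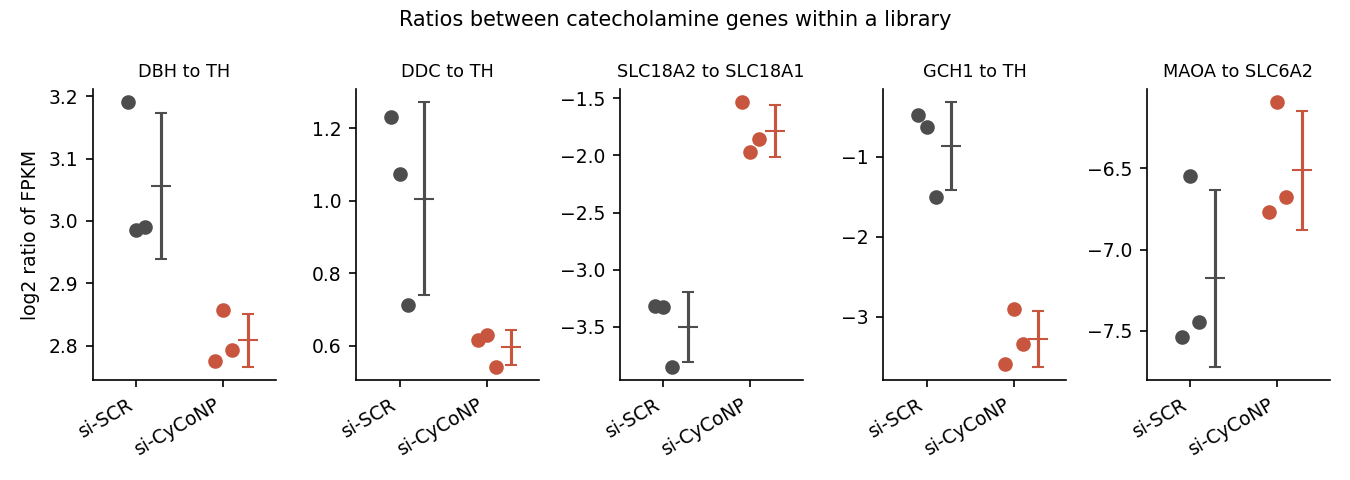
Log2 ratio of FPKM between pairs of catecholamine genes, with 1 point per library and, beside the points, the mean and SD of the 3 libraries of a group; each panel has its own vertical scale. GCH1 to TH is lower by 2.41 in si-CyCoNP libraries and SLC18A2 to SLC18A1 is higher by 1.71, and only MAOA to SLC6A2 overlaps between groups.

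Beyond the 9 genes, 77 further genes of cofactor supply, uptake, breakdown, vesicle acidification, ascorbate handling and catecholamine reception were examined. Of these 43 were expressed enough to test, 13 were lower and 7 higher in si-CyCoNP cells, and their median log2 fold change was -0.15. By the same rule 14.2% of all genes tested were lower and 14.2% were higher, so the 7 are near the share over all genes. The 13 became 8 without the si-SCR library numbered 2, 8 with scaling by library totals alone, and 5 or 6 by limma on FPKM.

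Among the 9 tested genes of tetrahydrobiopterin supply, GCH1 included, 3 (GCH1, PCBD1 and QDPR) fell and 1 rose (median log2 fold change -0.19). Over all genes 14.2% fell and 14.2% rose, and the 1 rise is near that share. PCBD1, which recycles the oxidised cofactor by dehydration, fell by 1.03 on the log2 scale (SE 0.19, edgeR adjusted p = 1.39e-04), from 17.9 ± 2.397 to 9.18 ± 2.54 FPKM (SD, n = 3). QDPR, the dihydropteridine reductase that completes the recycling, fell by 0.46 (SE 0.10, edgeR adjusted p = 5.54e-04). AKR1C3, an aldo-keto reductase of broad substrate range, rose by 0.58 (SE 0.16, edgeR adjusted p = 0.00584). These calls held in 15 of 15 alternatives.

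The vesicular proton pump provides the gradient that drives SLC18A1 and SLC18A2. Of its 18 tested subunit genes 4 rose and 8 fell, against 14.2% each way over all genes, with a median log2 fold change of -0.11. ATP6V1A, the catalytic subunit, rose by 0.54 (SE 0.09, edgeR adjusted p = 1.74e-05), and ATP6V0E1, ATP6V0A1 and ATP6V1G1 rose by 0.61, 0.44 and 0.40. ATP6V1E1, ATP6AP1, ATP6V0A2 and ATP6V1D had log2 fold changes of -0.56, -0.48, -0.46 and -0.45 and also passed. TCIRG1, ATP6V1C1 and ATP6V1B2, also among the 8, passed in only 6, 4 and 9 of 15 alternatives, while the 4 rises passed in all 15. TCIRG1 (1.56 against 0.904 FPKM) passed the filter only through its si-SCR mean, so it could be tested only because it was high there. The FPKM summed over the list of 25 was 352 to 382 in si-SCR and 403 to 431 in si-CyCoNP libraries. It was higher in the latter although more subunits fell than rose in the main fit.

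In breakdown, 1 of 10 tested genes rose and 1 fell (median -0.16), near the 14.2% each way over all genes. ALDH2, the mitochondrial aldehyde dehydrogenase, rose by 0.51 (SE 0.12, edgeR adjusted p = 0.00208), and its relative ALDH1B1 fell by 0.55 (SE 0.14, edgeR adjusted p = 0.00494). In uptake, SLC29A4, a monoamine transporter of low affinity, had a log2 fold change of -0.58 ± 0.20 (SE, edgeR adjusted p = 0.0313), with overlapping groups and a pass in 7 of 15 alternatives. Of 3 tested receptors, ADRA2C, an alpha-2 adrenoceptor, rose by 1.18 (SE 0.21, edgeR adjusted p = 8.02e-05), from 4.17 ± 1.29 to 9.97 ± 1.32 FPKM (SD, n = 3). DRD2, a dopamine receptor, had a log2 fold change of -0.43 ± 0.14 (SE, edgeR adjusted p = 0.0240), with overlapping groups and a pass in 8 of 15 alternatives. MAOB, the dopamine transporter SLC6A3 and the GCH1 regulator GCHFR, chosen here after their values were seen, had 0 counts in every library, as did 18 of the 77 genes in all. PNMT, which turns noradrenaline into adrenaline and belongs to a list of 5 related synthesis enzymes of which 0 reached the filter, was at 0.860 FPKM in control and 0.857 FPKM in depleted cells.

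**Figure D4:**
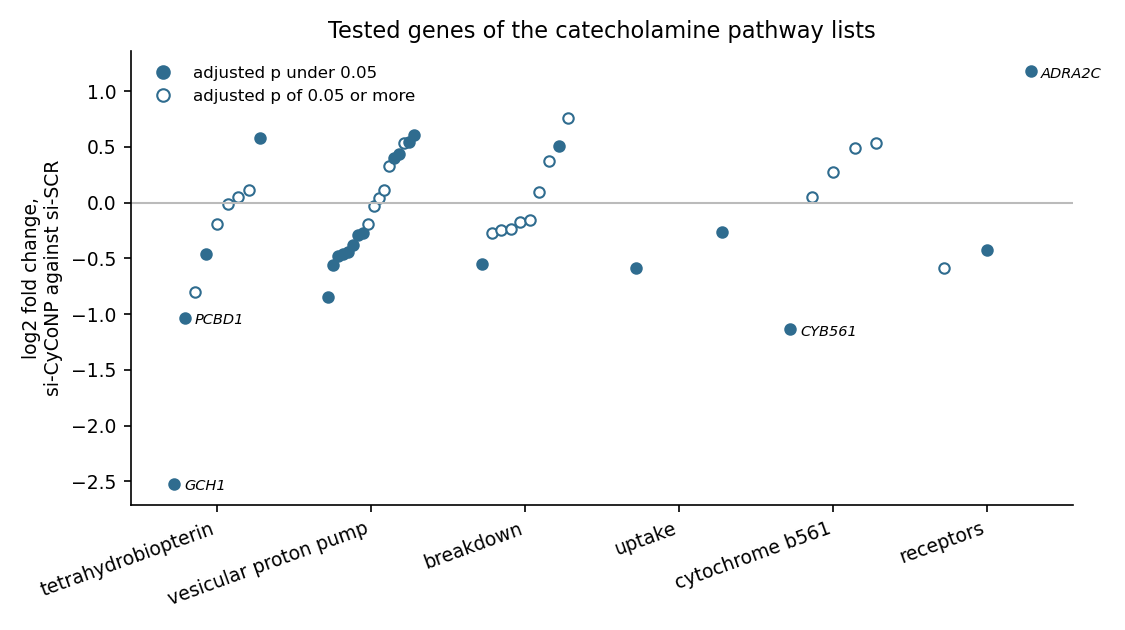
Log2 fold change in si-CyCoNP against si-SCR cells of every tested gene on the 6 pathway lists (vertical axis), each gene a point, filled where it passed the test; GCH1, CYB561, SLC6A2 and MAOA appear in their lists, and genes past the test by more than 1 are named. Proton pump points spread on both sides of 0, and GCH1 is the lowest point of all lists.

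The 3 tested genes whose profile over the 6 libraries was nearest to that of GCH1, by root mean square distance of centred log2 values, were STMN4 (0.0758), RPH3A (0.179) and SLC18A3 (0.221). STMN4, a stathmin, RPH3A, a vesicle protein that binds Rab3, and SLC18A3, the vesicular acetylcholine transporter, had log2 fold changes of -2.68, -2.35 and -2.69 beside the -2.52 of GCH1. SLC18A3 went from 34.5 ± 8.56 to 5.57 ± 1.59 FPKM and RPH3A from 18.0 ± 4.05 to 3.71 ± 0.434 FPKM (SD, n = 3). Since they were picked for this likeness, their fall is a description and carries no test.

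Markers of the cell type moved in both directions. Of 11 tested neuroblast markers 6 fell, 2 rose (MYCN and TFAP2B) and 3 did not pass the test. By the same rule 14.2% of all genes tested were lower and 14.2% were higher. GATA3, 1 of the 6, had overlapping groups and passed in 8 of 15 alternatives. PHOX2A and GATA2, transcription factors of the noradrenergic lineage, fell by 1.13 and 1.06 on the log2 scale, from 734 to 352 FPKM and from 342 to 172 FPKM, while MYCN rose by 0.84, and INSM1 had at most 3 counts in any library. The summed FPKM of the 12 neuroblast markers was 2030 to 2330 in si-SCR and 1827 to 2014 in si-CyCoNP libraries. Of 5 tested chromaffin markers 3 fell, namely SLC18A1 itself, CHGA (-1.24) and CHGB (-1.01), and the FPKM summed over the list of 7 was 691 to 936 in si-SCR and 402 to 448 in si-CyCoNP libraries.

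Several defining markers of other cell types were at 0. The Schwann cell factors SOX10, FOXD3 and CDH19 and the fibroblast genes COL1A2, PRRX1 and TWIST2 had 0 counts in every library, and 0 of 7 endothelial markers reached the filter. Of 6 tested fibroblast markers 2 rose and 2 fell, against 14.2% each way over all genes. The collagen genes COL3A1 and COL1A1 rose by 2.83 (SE 0.46, edgeR adjusted p = 2.56e-05) and 1.68 (SE 0.25, edgeR adjusted p = 8.62e-06) on the log2 scale, from 0.148 to 1.07 FPKM and from 0.450 to 1.50 FPKM. Both passed the filter only through the si-CyCoNP mean, so they could be tested only because they were high there. COL3A1 passed in 12 of the 14 alternatives that included it. DCN and THY1 had log2 fold changes of -0.82 and -0.38. Summed over the list of 10, the libraries held 49.1 to 60.2 FPKM in control and 50.3 to 58.3 FPKM in depleted cells, of which THY1 made up 35.7 and 28.8 FPKM on average. One (1) of 8 immune markers was tested, CD14, and it rose (1.58 to 2.14 and 2.53 to 5.60 FPKM for the list). Their part in the changes of the catecholamine genes was not tested.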

How the data were processed

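The 6 libraries of total RNA from SK-N-BE cells, 3 per group, were all used, with groups and replicate numbers taken from the sample titles. Libraries were stranded and depleted of ribosomal RNA. Per the labels and the methods of the study, the authors trimmed reads with Trimmomatic 0.39 and cutadapt 3.2, removed ribosomal reads with Bowtie2 2.4.2, aligned the rest to GRCh38 with STAR 2.7.7a and deposited raw counts per Ensembl gene. Reads that map to several places are not counted. The authors also deposited FPKM, scaled by gene length and library total. Of 60676 identifiers 60357 matched a symbol.

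The 9 genes and all lists were chosen with earlier results of these data known. The 13966 genes whose group mean reached 1 FPKM in si-SCR or si-CyCoNP cells were tested on counts with edgeR 4.0.16 in R 4.3.3 (TMM, quasi-likelihood test), adjusted by Benjamini-Hochberg over all of them. The methods of the study name DESeq2, run here (1.42.0) as an alternative, as was limma 3.58.1 on log2(FPKM + 1) and log2(FPKM + 0.1). Ratios and shares were compared by exact permutation tests. The main edgeR fit was tested on simulated counts. Named were the 9 genes, LINC02381 and the 3 genes nearest to the member with the smallest p. Up to 8 genes per pathway list that passed with the smallest p were also named. Proton pump genes whose fall was less stable were named as well. Gene positions were taken from the annotation of GRCh38 and promoters from RefSeq (GRCh38.p14). Libraries of a group were not duplicates of one another (chi-square divided by its degrees of freedom, 2.41 to 5.18 per pair). Each counted as 1 sample, but this difference does not show that they were separate cultures. Some marker values and microRNA sites are not reported here.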

Additional observations from a re-analysis of the deposited data

How the results depend on the processing

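Of 135 fold changes of the 9 genes under 15 alternatives each, 126 kept their direction and side of the threshold, 9 kept only the direction, and 0 reversed. The 9 were DBH on both FPKM scales (-0.29 each) and SLC6A2 in 7 settings, among them scaling by library totals alone (-0.20) and 4 that left out a library. Lower calls ranged from 4 to 6, and the higher call stayed at 1. Of the 3 falls of more than 1 on the log2 scale, 1 passed glmTreat, and leaving out a library gave 3 throughout. Among the 77 further pathway genes, the 13 lower calls became 8 with library totals alone, 6 with log2(FPKM + 1) and 5 with log2(FPKM + 0.1), and 8 to 16 when 1 library was left out. Higher calls ranged from 7 to 10. The cause was not tested. Over all genes, limma called 1118 and 1113 lower, glmTreat 88 lower and 45 higher, and limma on log2(FPKM + 1) called 180 lower and 207 higher by more than 1, against 416 and 319. The ratios kept their direction in all 9 alternatives each, but most of these could not have reversed them. The ratio of counts and the replicate block give the same difference as the main ratio by construction. Where the groups do not overlap, leaving out a library cannot change the sign.

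Replicate numbers are shared by the groups. The correlations of deviations between same-numbered libraries were 0.0907, 0.0727 and 0.108. Those between differently numbered libraries were all negative (-0.0666 to -0.0229). Deviations were taken from the mean of each group, so positive same-numbered values push the others below 0. Their sign is therefore not a separate observation. Not all same-numbered values exceed 0.1, a limit chosen here, so the numbers were not taken as pairs. Every library nevertheless correlated best with its own number. A fit with the replicate number as a block gave 6 lower and 1 higher of the 9 genes, and 15 lower and 10 higher of the 77. Of all genes it called 2368 lower and 2402 higher. For SLC6A2 it gave a log2 change of -0.26 (edgeR adjusted p = 0.00133). In the block, ratios were compared by sign flips, whose smallest p with 3 pairs is 0.25. Depth limits MAOA most, with 16 to 34 counts.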
